A study of Mus musculus with 23 samples.

Results

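Brain cells that carried a medium amount of an injected CD98hc-binding antibody were compared with cells of the same mice that carried a low amount. The 4 libraries are those titled low and medium of the ATV-CD98hc dose, with 2 pools of mice in each fluorescence bin. After a filter of at least 500 genes, at least 800 unique molecular identifiers (UMIs) and at most 10% mitochondrial UMIs, and the removal of predicted doublets, they held 70788 of the 234022 kept cells of the series. The low bin had 15856 cells in pool 1 and 18721 in pool 2, and the medium bin had 16872 and 19339.

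The series followed which brain cells take up brain-penetrating antibodies (antibody transport vehicles, ATVs), in 23 single-cell RNA libraries of 12 groups. All 4 libraries here came from CD98hc mu/hu KI mice, which carry a knock-in of the human form of CD98hc on a C57BL/6J background, at 3.3 months of age. The mice received 45 mg/kg of ATV-CD98hc (labelled DNP02 LALAPG LLB2-10-8 monovalent), coupled to the dye Alexa Fluor 647, through the tail vein, and were perfused with saline 24 hours later. Each pool joined the dissociated brains of 1 male and 1 female, without olfactory bulb, cerebellum, pons and medulla, and live cells of that pool were sorted into a negative, low, medium and high bin. The gates were set on ATV-TfR samples and applied to every dose, so a bin stands for the same dye signal in all of them. By flow cytometry about 20% of the cells were dye-positive after ATV-CD98hc, 30% after ATV-TfR and 1% after control IgG. ATV-TfR, the vehicle that binds the transferrin receptor, was given to TfR mu/hu KI mice, so vehicle and genotype coincide wherever the 2 ATVs are compared. The 2 pools are separate mice, and with 2 libraries a bin the p-values rest on a spread shared over the libraries of a model.

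CD98hc, encoded by Slc3a2, is the heavy chain that brings a set of amino acid exchangers to the cell surface, among them LAT1 (Slc7a5), which carries large neutral amino acids across the blood-brain barrier. Brain capillary endothelium is known for high levels of both, and astrocytes, whose endfeet cover the vessels, carry CD98hc with other light chains. In an ATV the binding site for the receptor is built into the Fc part of the antibody, and the LALAPG changes weaken its binding to Fc gamma receptors.

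The libraries held 70787402 and 83761215 UMIs in the low bin and 90307818 and 81430333 in the medium bin, with median depths of 3156.5, 3522, 3764.5 and 3076 UMIs per cell. Between any 2 of the 4 libraries 65 to 106 cell barcodes were the same sequence. Doublet calls removed 12.2% of the cells of low pool 1, where the caller set its own threshold, and 5.16% to 5.98% of the other 3 libraries. Clustering gave 26 clusters, of which 21 were named by fixed markers in 10 classes, and "-like" stands for that naming. Unnamed cells made up 3.38% and 3.98% of the low and 2.80% and 2.27% of the medium libraries. The largest unnamed cluster, of 1756 cells in the series, had both endothelial and astrocyte markers and was led by the arterial genes Gkn3, Stmn2 and Egfl8; it held 155 and 326 low and 316 and 322 medium cells, which are thus outside the endothelial-like class. Another unnamed cluster, of 513 cells with astrocyte markers, was led by Atp8a2, Arhgap45, Runx1 and Ikzf1; it had 149 and 253 cells in the low libraries and 0 in the medium libraries.

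The question of the first comparison was which cell types fill each bin. Endothelial-like cells, the lining of the vessels, made up 11.7% and 11.1% of the low libraries and 81.8% and 82.0% of the medium libraries, a mean of 11.4% ± 0.439 against 81.9% ± 0.110 (SD, n = 2). Astrocyte-like cells, the glia that wrap the vessels and clear transmitters, made up 65.9% and 70.1% of the low and 7.41% and 9.21% of the medium libraries, or 68.0% ± 2.96 against 8.31% ± 1.28 (SD, n = 2). The 2 classes thus changed places between neighbouring bins, with both pools on the same side. Microglia-like cells, the resident immune cells, went from 12.0% and 9.65% to 1.40% and 0.657%. Oligodendrocyte-like cells, which make myelin, went from 1.44% and 1.06% to 0.397% and 0.279%. Pericyte-like cells, which sit on the capillary wall, went the other way, from 0.587% and 0.753% to 2.45% and 2.80%. A finer clustering (Leiden resolution 2) split this class into a cluster that also held 11 of 12 endothelial markers, at a median of 6268 UMIs per cell, and one without them, at 2554. The cluster with endothelial markers went from 0.189% and 0.240% to 1.88% and 1.94% of a library, and the one without them from 0.391% and 0.518% to 0.569% and 0.864%. In each of these 5 classes the low and medium libraries did not overlap.

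The same 5 of 10 classes passed the test on cell numbers per library (edgeR's quasi-likelihood test, adjusted over the 10 classes). Endothelial-like cells rose 7.19-fold (log2 fold change 2.85, SE 0.27, adjusted p = 1.9e-09) and pericyte-like cells 3.91-fold (1.97, SE 0.33, adjusted p = 1.1e-05). With the pericyte cluster that held endothelial markers left unnamed at the finer resolution, an alternative chosen after seeing the data, the pericyte-like rise was 0.65 and short of the threshold (SE 0.46, adjusted p = 0.25), and 4 classes were called. Astrocyte-like cells fell 8.18-fold (-3.03, SE 0.27, adjusted p = 1.1e-09), microglia-like cells 10.5-fold (-3.39, SE 0.42, adjusted p = 1.2e-07) and oligodendrocyte-like cells 3.70-fold (-1.89, SE 0.35, adjusted p = 3.7e-05). Fibroblast-like cells were at 0.864% and 1.24% in the low and 0.705% and 0.739% in the medium libraries, without overlap and short of the threshold (-0.55, adjusted p = 0.096). Choroid plexus epithelial-like cells, at 3.17%, 1.34%, 1.98% and 1.30%, overlapped between the bins (-0.46, adjusted p = 0.27). Border macrophage-like cells, at 0.618%, 0.502%, 0.735% and 0.538%, overlapped too (0.18, adjusted p = 0.61), as did smooth muscle-like cells (-0.05, adjusted p = 0.93), and ependymal-like cells went from 0.309% and 0.256% to 0.196% and 0.165% (-0.64, adjusted p = 0.21).

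**Figure D1:**
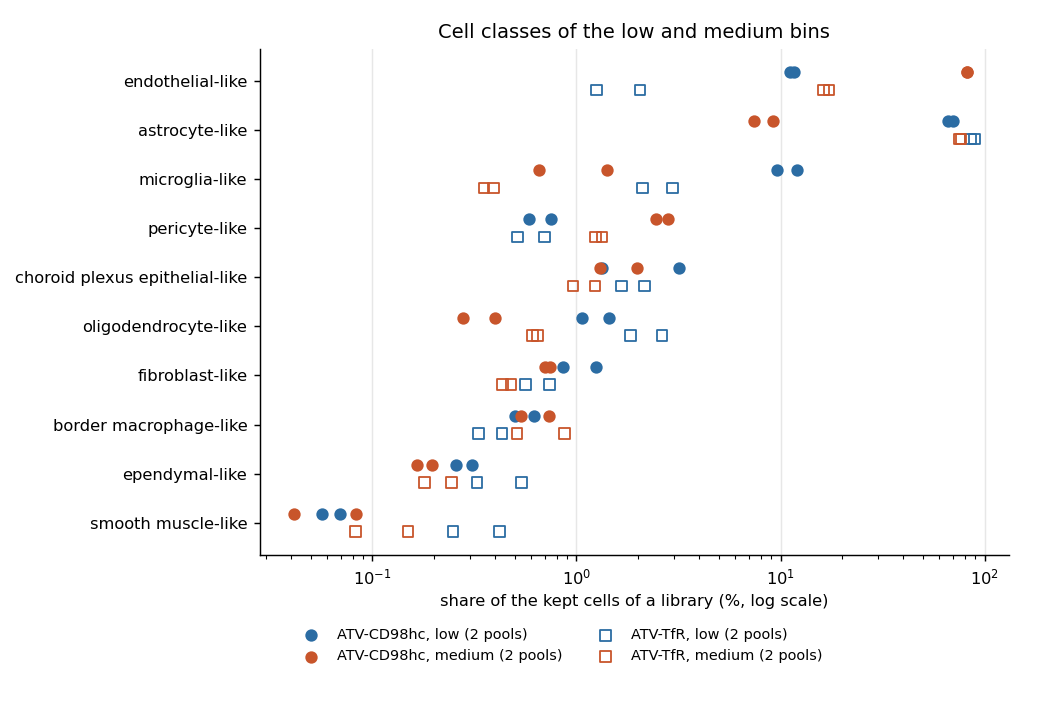
Share of the kept cells of a library in each of 10 classes (x axis, percent, log scale) for the low (blue) and medium (orange) bins; filled circles are the 2 pools of ATV-CD98hc, open squares the 2 pools of ATV-TfR. In ATV-CD98hc the medium libraries hold 81.8% and 82.0% endothelial-like cells and 7.41% and 9.21% astrocyte-like cells, against 11.7% and 11.1%, and 65.9% and 70.1%, in the low libraries.

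Shares of a library add up to its whole, so the direction of a class depends on what it is set against. Counted among the cells outside the endothelial-like class, border macrophage-like cells were more frequent in the medium bin by 2.47 (adjusted p = 9.1e-07) and fibroblast-like, choroid plexus epithelial-like, ependymal-like and smooth muscle-like cells by 1.74, 1.83, 1.64 and 2.21. Oligodendrocyte-like cells were then at 0.40 (adjusted p = 0.27), and 8 classes were called in all. Astrocyte-like cells were then lower by -0.74 (adjusted p = 0.0054) and microglia-like cells by -1.11 (adjusted p = 0.011), smaller falls than over all cells, and pericyte-like cells were higher by 4.26. With TMM factors over the classes, the fall of oligodendrocyte-like cells was -1.63 and short of the threshold (adjusted p = 0.077).

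The same step from low to medium was read in ATV-TfR for comparison. There endothelial-like cells went from 1.65% ± 0.566 to 16.7% ± 0.744 and astrocyte-like cells from 87.2% ± 3.06 to 75.9% ± 0.841 (SD, n = 2). The difference of the 2 steps was past the threshold for 1 class, astrocyte-like cells, at -2.83 (SE 0.36, adjusted p = 7.5e-07). For endothelial-like cells it was -0.49 (adjusted p = 0.38). The astrocyte-like difference was short of the threshold under TMM factors (-2.55, adjusted p = 0.19), and among cells outside the endothelial-like class it was -0.78 (adjusted p = 0.024). Counted among those cells, all 9 differences tested were called. Those of border macrophage-, microglia-, oligodendrocyte- and fibroblast-like cells, at -0.68, -0.64, -0.06 and -0.03 over all cells, then turned positive.

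Gene expression was then compared within each class, with the cells of a library summed and levels given in CPM, a gene's UMIs scaled to one common total per library and class. A pair of measured facts stands beside all of these results. In the medium bin the summed endothelial markers were higher and the summed astrocyte markers lower in each of the other 8 classes tested, and the cells of the low bin were shallower in several classes. In endothelial-like cells the median depth was 2039 and 2344.5 UMIs in the low and 3598 and 2971 in the medium libraries, and in astrocyte-like cells 3383, 3772, 4973 and 3749.

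The 12 endothelial markers in endothelial-like cells had a sum of 27386 and 27994 CPM in the low and 29623 and 30606 in the medium libraries. None of the 12 was called in edgeR (5 had an unadjusted p under 0.05, DESeq2 called 2 higher, and a fit that keeps each pool together called 5 higher). The 10 astrocyte markers, by contrast, summed to 576 and 909 CPM in the low and 134 and 165 in the medium endothelial-like cells, and all 10 fell. Microglia markers fell from 224 and 233 to 126 and 90.3 CPM in sum, with 7 of 8 called. Neuron markers summed to 324, 278, 87.1 and 90.0 CPM, with 2 called, but of this sum Stmn2, which has its peak in endothelial-like cells, made up 318, 270, 83.6 and 86.2. Oligodendrocyte markers summed to 80.5, 102, 36.5 and 45.0, with 2 called (6 in the fit by pool). Red cell markers summed to 1.20, 4.32, 578 and 13.2 CPM, so medium pool 1 stood apart in them, with 0 called in edgeR (3 at an unadjusted p under 0.05, 1 higher in DESeq2 and 4 higher in the fit by pool).

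In astrocyte-like cells their own 10 markers summed to 19101, 19045, 19505 and 19739 CPM over low pools 1 and 2 and medium pools 1 and 2, with 0 called (2 with an unadjusted p under 0.05, and 0 in DESeq2). The 12 endothelial markers summed to 51.0 and 83.4 CPM in the low and 538 and 806 in the medium libraries, and all 12 rose. Pericyte markers rose too, with 5 of 7 called and sums of 158, 157, 196 and 206 CPM, and choroid plexus epithelial markers, with 2 of 5 called, summed to 262, 196, 533 and 366. Microglia markers fell as they did in endothelial-like cells, from 188 and 189 to 139 and 109 CPM, with 6 of 8 called. Red cell markers summed to 108, 78.8, 8.10 and 1.26 CPM with 0 of 5 called in edgeR (2 at an unadjusted p under 0.05, 0 in DESeq2, and 4 lower in the fit by pool). The part these markers of other cells play in the changes of other genes was not tested. The class in which a gene had its highest level over the whole series is here called its peak, and it is given below for the called genes of most groups.

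**Figure D2:**
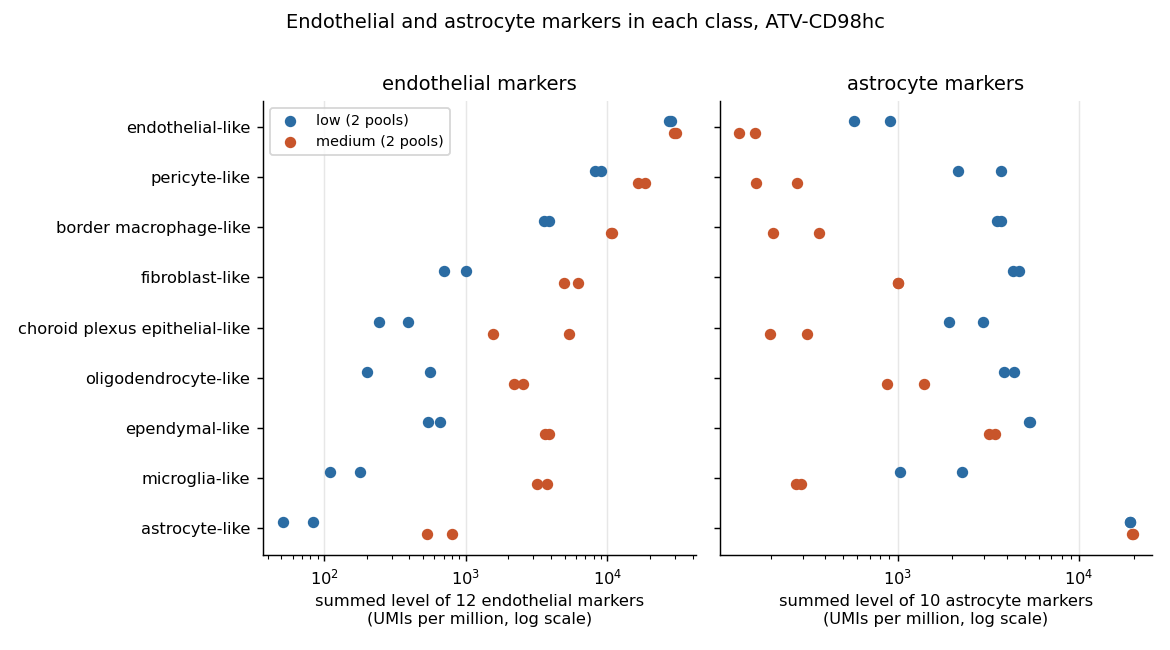
Summed level of 12 endothelial markers (left) and 10 astrocyte markers (right) in each class (x axes, CPM, log scale), with the 2 low pools in blue and the 2 medium pools in orange. Endothelial markers are higher in the medium bin and astrocyte markers lower in every class shown other than the one they mark, where they lie within 27386 to 30606 and 19045 to 19739.

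In endothelial-like cells arterial and fenestrated genes were lower in the medium bin and a few capillary genes higher. The cells of the class lay in different clusters in the 2 bins. A cluster led by the arterial genes Gkn3, Stmn2 and Vegfc held 22.6% and 22.0% of the low but 2.85% and 5.44% of the medium endothelial-like cells. Of all kept cells of a library it made up 2.64% and 2.44% in the low and 2.34% and 4.46% in the medium bin, with overlap. At Leiden resolution 2 a larger cluster led by Gkn3, Stmn2 and Slc26a10 held 42.8% and 38.4% against 11.4% and 22.3% of the endothelial-like cells, a smaller drop. Of all kept cells that cluster made up 4.96% and 4.17% in the low and 9.3% and 18.3% in the medium bin, a rise. At the first resolution one led by the fenestrated genes Plvap and Igfbp3 was shallow, at a median of 1642 UMIs per cell. It held 4.04% and 4.10% of the low against 2.65% and 1.17% of the medium endothelial-like cells. Of all kept cells it made up 0.473% and 0.454% in the low and 2.17% and 0.957% in the medium bin. At Leiden resolution 2 the cluster led by these fenestrated genes had a median of 3439 UMIs and held 2.67% and 3.34% of the low against 0.333% and 0.258% of the medium endothelial-like cells. Of all kept cells this cluster made up 0.309% and 0.363% in the low and 0.273% and 0.212% in the medium bin. Of 15539 genes tested 80 rose (0.515%) and 1199 fell (7.72%). Of the falls 473 were of genes with their peak in astrocyte-like cells, out of 2033 such genes tested. Among the 1812 genes with their peak in endothelial-like cells 49 rose and 38 fell. A fit that keeps each pool together, since both bins of a pool come from the same mice, called 847 higher and 1664 lower, and 312 and 70 among the endothelial genes. Without pool 1 of ATV-CD98hc the endothelial genes gave 20 rises and 36 falls, and without pool 2 they gave 128 and 59. Within 1 cluster of endothelial-like cells, the one most frequent in the class over the low and medium libraries of ATV-CD98hc, 7 of the endothelial genes rose and 6 fell. That cluster, led by Gm9946, Hmcn1 and Mecom, was the largest of the class in both libraries of pool 1 (36.7% of the low and 61.1% of the medium cells), while in pool 2 a cluster led by Slc38a5, Tmsb10 and Vwf was larger (33.8% and 35.8%, against 28.4% and 35.0%). Between the ATVs the step was higher in ATV-CD98hc for 8 genes (0.0515%) and lower for 129 (0.83%), and 0 were called without ATV-TfR pool 1 or pool 2 (657 and 658 at an unadjusted p under 0.05).

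Of 11 arterial genes listed, 9 fell and 0 rose, with a median log2 fold change of -1.90 against 0.03 over all genes tested. These values are over the whole class, of which the arterial cluster made up a smaller share in the medium bin, as given above. Gkn3 (chromosome 6, 87383319 to 87388935, GRCm38.p6), which marks arterial endothelium of the mouse brain, was at 458 and 596 CPM in the low and 71.3 and 90.5 CPM in the medium libraries (-2.61, SE 0.33, adjusted p = 5.7e-06). Vegfc, a growth factor for lymphatic vessels, was at 141 and 161 against 41.6 and 34.6 CPM, a fall of 1.90 on the log2 scale. Bmx, a tyrosine kinase of arterial endothelium, was at 105 and 103 against 34.1 and 32.8 CPM, a fall of 1.54. These 3 have their peak in endothelial-like cells, and each low library lay above each medium library, as the ranking rule asked.

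Cytl1, with its peak in endothelial-like cells, stood at 22.1 and 26.3 against 0.825 and 1.49 CPM (-4.30). Fbln5, an elastic fibre protein with its peak in fibroblast-like cells, stood at 40.5 and 55.6 against 1.26 and 2.59 CPM (-4.55). The other called members were Gja4 and Gja5, connexins of arterial endothelium with their peak in smooth muscle-like and ependymal-like cells, and Sema3g and Hey1, with theirs in endothelial-like cells. Efnb2 (-0.16, adjusted p = 0.83) and Sox17 (-0.43, adjusted p = 0.34) were not called. Within the single most frequent cluster 0 of 9 tested members were called and the median was -0.28, with Gkn3 at -0.82 (adjusted p = 0.078).

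Genes of fenestrated endothelium, the leaky type of the choroid plexus and circumventricular organs, all fell: 7 of 7, with a median of -3.39. Plvap (chromosome 8, 71497753 to 71511806), which builds the diaphragm of fenestrae, was at 81.0 and 114 CPM in the low and 2.51 and 4.49 CPM in the medium libraries (-4.71, SE 0.46, adjusted p = 1.7e-07). Igfbp3 was at 101 and 99.6 against 7.67 and 10.2 CPM (-3.39). Gpihbp1, which anchors lipoprotein lipase on capillaries of the periphery, was at 9.59 and 19.8 against 0.236 and 0.344 CPM (-5.57), and Esm1, Exoc3l2, Plpp1 and Plpp3 fell as well. In contrast to the arterial list, all 7 were also called within the most frequent cluster, with a median of -2.30. Of the 7, Gpihbp1 and Igfbp3 have their peak in endothelial-like cells, Plvap, Plpp1 and Exoc3l2 in fibroblast-like, Plpp3 in astrocyte-like and Esm1 in ependymal-like cells.

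Capillary genes leaned the other way. All 10 listed had a positive value, with a median of 0.58, and 3 passed the test. Spock2, a proteoglycan, was at 1954 and 1938 CPM in the low and 3018 and 2768 in the medium libraries (0.66, SE 0.18, adjusted p = 0.017). Slc22a8, an organic anion carrier of the barrier, was at 302 and 321 against 425 and 478 CPM (0.63, SE 0.19, adjusted p = 0.035), and Tfrc is described with the receptors. Mfsd2a, the lipid carrier that marks barrier capillaries, had 0.66 (adjusted p = 0.060) and the monocarboxylate carrier Slc16a1 0.88 (adjusted p = 0.079). The fit by pool called 8 of the 10, the most frequent cluster alone called 1, and the fits without ATV-TfR pool 1 or pool 2 called 1 each. Slc22a8 lost its call without either ATV-CD98hc pool too, and Spock2 without pool 1. Of 10 venous genes tested 1 fell, the adhesion molecule Vcam1, from 58.7 and 80.8 to 15.5 and 17.4 CPM (adjusted p = 0.00028), a gene with its peak in fibroblast-like cells. The venous median was 0.34, and Slc38a5 (0.71, adjusted p = 0.31), Vwf (-0.14, adjusted p = 0.91) and Nr2f2 (0.49, adjusted p = 0.26) were not called.

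**Figure D3:**
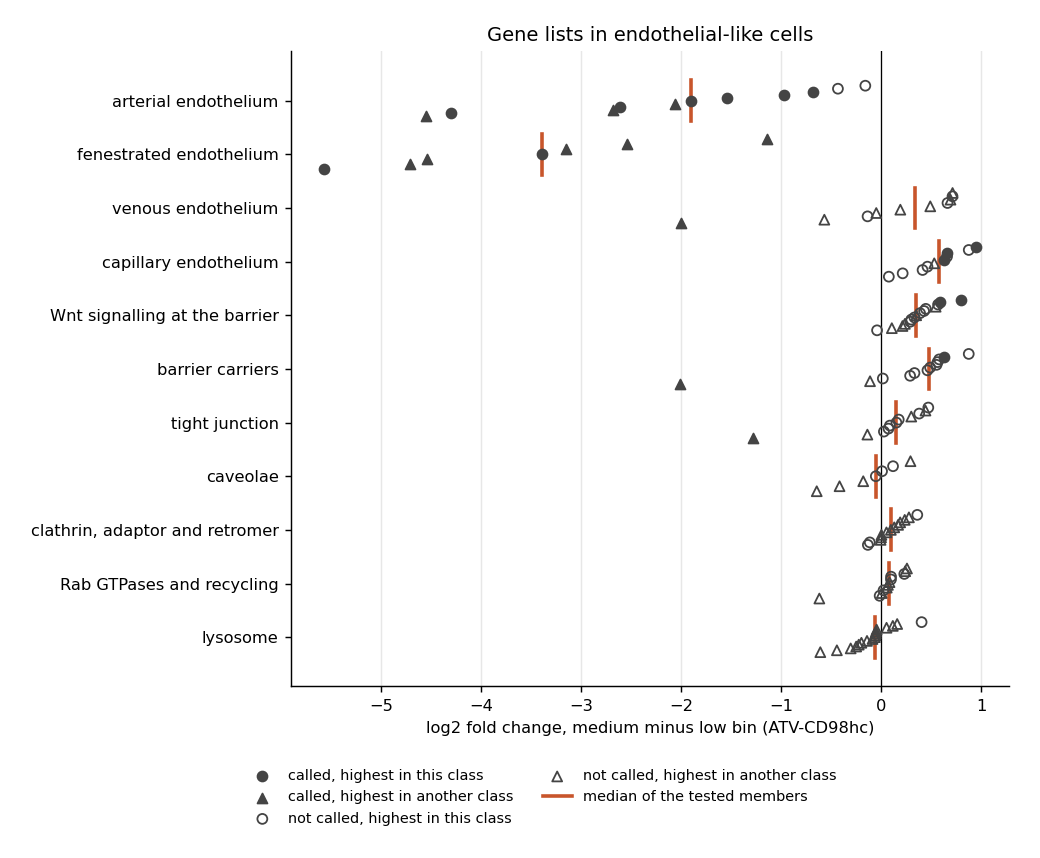
Log2 fold change of the medium against the low bin in endothelial-like cells (x axis) for the tested members of 11 gene lists; filled symbols passed the test, circles are genes with their peak in endothelial-like cells, triangles in another class, and the bar is the median of the list. The arterial and fenestrated lists lie to the left (medians -1.90 and -3.39) and the capillary list to the right of 0 (median 0.58).

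The bound receptor and its partner came next. Slc3a2 (chromosome 19, 8706882 to 8723369), which encodes CD98hc itself, was at 203 and 189 CPM in the low and 237 and 249 in the medium endothelial-like cells. The bins did not overlap, and the difference was short of the threshold (0.40, SE 0.20, adjusted p = 0.35; 0.39 and adjusted p = 0.023 in the fit by pool). How transcripts of the humanised allele were counted is not given in the sources used here, so the level may hold only part of them. Slc7a5 (chromosome 8, 121881146 to 121907686), the LAT1 light chain, was at 567 and 625 against 977 and 1031 CPM and rose by 0.84 (SE 0.22, adjusted p = 0.015).

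Tfrc (chromosome 16, 32608896 to 32632794), the transferrin receptor, which ATV-CD98hc does not target, was at 281 and 294 against 597 and 450.5 CPM and rose by 0.95 (SE 0.19, adjusted p = 0.0014). Fcgrt (chromosome 7, 45092993 to 45103822), the neonatal Fc receptor that recycles antibodies, was at 574 and 548 against 469 and 680 CPM, with overlapping bins (0.13, adjusted p = 0.88). Within the most frequent cluster Slc7a5 (0.53, adjusted p = 0.10) and Tfrc (0.63, adjusted p = 0.18) were short of the threshold.

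Over all 4 ATV-CD98hc bins, negative to high, mean endothelial-like levels were 107, 196, 243 and 308 CPM for Slc3a2. They were 322, 596, 1004 and 1179 CPM for Slc7a5, 163, 287, 524 and 583 for Tfrc, and 311, 561, 575 and 587 for Fcgrt. Each of the 4 genes thus had its lowest mean in the negative bin, which held 80 and 58 endothelial-like cells. The medium and high bins overlapped in Tfrc (597 and 450.5 against 671 and 496 CPM) and in Fcgrt (469 and 680 against 494 and 681), and did not in Slc3a2 (237 and 249 against 253 and 362) or Slc7a5 (977 and 1031 against 1172 and 1186). In ATV-TfR the low and medium means were 248 and 451 CPM for Slc3a2, 180 and 597 for Slc7a5 and 45.3 and 118 for Tfrc. Fcgrt was there at 352 and 293 CPM in the low and 578 and 585 in the medium libraries, without overlap. The mice of ATV-TfR carry the humanised TfR allele, and how its transcripts were counted is likewise not given in the sources used here, so these Tfrc levels, and the difference of the steps in Tfrc, may leave out part of them. The difference of the steps between the ATVs was not past the threshold for these genes (Slc3a2 -0.53, adjusted p = 0.77; Slc7a5 -0.95, adjusted p = 0.29; Tfrc -0.52, adjusted p = 0.81; Fcgrt -0.78, adjusted p = 0.50).

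**Figure D4:**
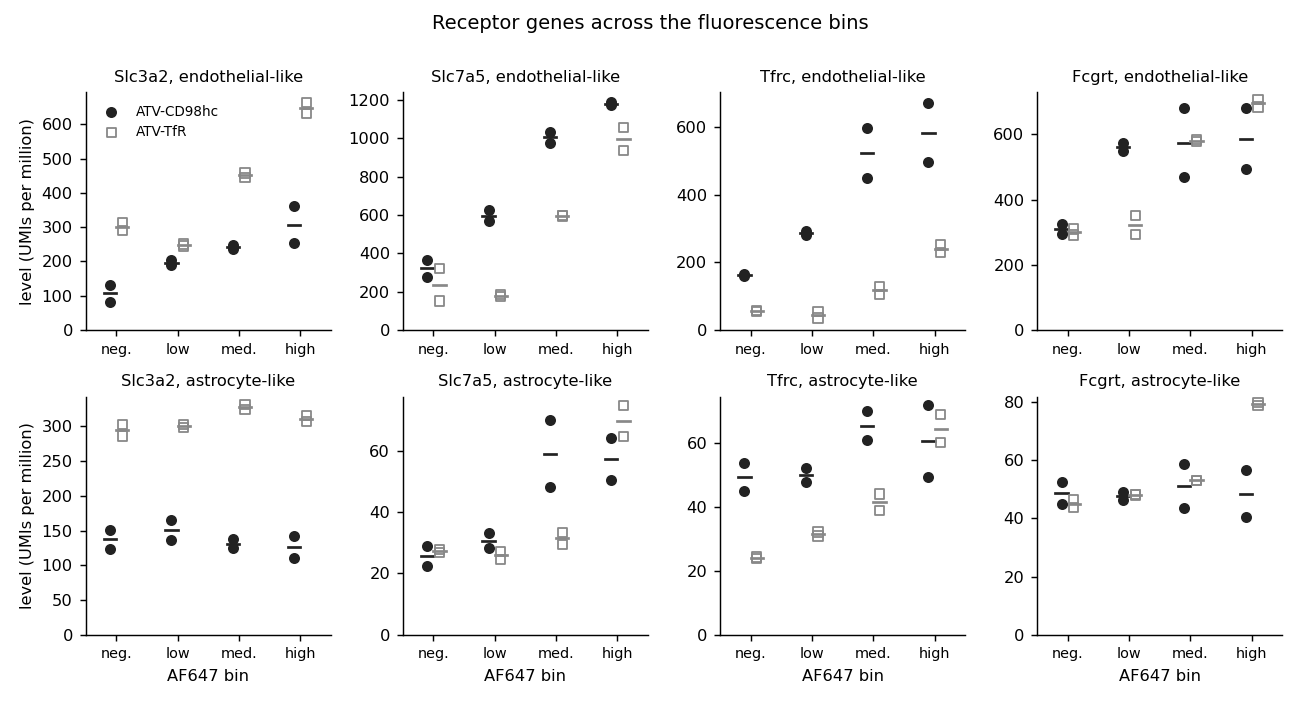
Level of Slc3a2, Slc7a5, Tfrc and Fcgrt (y axes, CPM, from 0) over the 4 fluorescence bins in endothelial-like cells (top) and astrocyte-like cells (bottom); filled circles are the pools of ATV-CD98hc, open squares those of ATV-TfR, and bars their means. Endothelial-like Slc7a5 in ATV-CD98hc has means of 322, 596, 1004 and 1179 from the negative to the high bin, while astrocyte-like Slc3a2 stays between 126 and 151.

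Of the 6 light chains that pair with CD98hc, Slc7a5 rose while Slc7a7, Slc7a8, Slc7a10 and Slc7a11 fell in endothelial-like cells. None of these 4 has its peak there: Slc7a10, an exchanger of astrocytes, went from 18.9 and 22.5 to 2.39 and 3.17 CPM (-2.81, adjusted p = 2.0e-05). Among 10 amino acid carriers that work without CD98hc, Slc7a1, the cationic amino acid carrier, rose from 421 and 422 to 746 and 627 CPM (0.79, adjusted p = 0.0032) and Slc1a4, with its peak in astrocyte-like cells, fell. Of 11 iron genes, Tfrc and the iron exporter Slc40a1 rose, the latter from 205 and 230 to 343 and 327 CPM (0.71, adjusted p = 0.0033), and Slc39a14, with its peak in astrocyte-like cells, fell. Slc7a1 and Slc40a1 lost their calls without ATV-CD98hc pool 1, Slc1a4 and Slc7a8 without pool 2, and Slc39a14 without any 1 of the ATV-CD98hc or ATV-TfR pools. Fcgr1, Fcgr2b, Fcgr3 and Fcer1g, receptors and an adaptor for IgG in myeloid cells, fell at levels of at most 15.1 CPM, all with their peak in microglia-like or border macrophage-like cells, and Fcgr2b and Fcgr3 lost their calls without ATV-CD98hc pool 2.

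The Wnt pathway maintains the barrier state of brain endothelium. Of its 15 listed genes 14 had a positive value, the median was 0.35, and 2 passed the test. Ctnnb1, beta-catenin, was at 568 and 558 against 818 and 779 CPM (0.59, adjusted p = 0.025), and Apcdd1, a target of the pathway, at 309 and 288 against 536 and 446 CPM (0.80, adjusted p = 0.0013). The transcription factor Lef1 had 0.57 (adjusted p = 0.19) and the receptor Fzd4 0.39 (adjusted p = 0.20). The fit by pool called 8 of the 15 and the most frequent cluster 0, and Ctnnb1 lost its call without any 1 of the 4 ATV-CD98hc or ATV-TfR pools. Of 12 barrier carriers, with a median of 0.48, Slc22a8 rose and Slc6a9, a glycine carrier with its peak in astrocyte-like cells, fell. The fit by pool called 7 higher and 1 lower, and the fit without ATV-CD98hc pool 2 called 4 higher and 1 lower. The glucose carrier Slc2a1 had 0.02 (adjusted p = 0.99) and the efflux pump Abcb1a 0.55 (adjusted p = 0.090). Of 11 tight junction genes 1 fell, Jam3, with its peak in oligodendrocyte-like cells, and the claudin Cldn5 had 0.03 (adjusted p = 0.98).

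Genes of uptake and sorting did not pass the test in edgeR: 0 of 7 caveolar, 0 of 13 clathrin, adaptor and retromer, 0 of 12 Rab and recycling, and 0 of 17 lysosomal genes were called. At an unadjusted p under 0.05 there were 2, 1, 1 and 2 of them, and DESeq2 called 2 caveolar genes lower, 0 clathrin genes, 0 Rab genes and 2 lysosomal genes, 1 in each direction. The medians of the 4 lists lay between -0.06 and 0.10. None of 15 interferon-stimulated genes was called either (0 at an unadjusted p under 0.05, and 0 in DESeq2). Of 12 immediate early genes, which respond within minutes to stimulation and to tissue handling, all had a negative value and 2 fell. Fos went from 26.8 and 33.8 to 9.31 and 10.3 CPM (-1.55, adjusted p = 0.00021) and Nr4a1 from 27.1 and 26.1 to 13.5 and 11.8 CPM (-0.98, adjusted p = 0.0026). Both have their peak in smooth muscle-like cells. The fit by pool called 7 of the 12, and the fits without ATV-CD98hc pool 1 and pool 2 called 4 and 5. Of 15 amino acid stress genes Phgdh and Psat1, enzymes of serine synthesis with their peak in oligodendrocyte-like cells, fell, and Psat1 lost its call without ATV-CD98hc pool 2 or either ATV-TfR pool.

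Among genes with their peak in endothelial-like cells, the largest rises in the medium bin after Tfrc were modest. Ndnf, a secreted factor, was at 146 and 163 against 289 and 265 CPM (0.93, SE 0.17, adjusted p = 0.00049). Slc39a8, a zinc and manganese carrier, was at 67.6 and 72.0 against 129 and 119 CPM (0.91), and Tiam1, an activator of the GTPase Rac, at 122 and 132 against 233 and 215 CPM (0.91). Each medium library lay above both low libraries, as the ranking rule asked of these genes and of those that follow. Ism1, Hmcn1 and Slc16a9 rose by 0.93, 0.90 and 0.88. Ism1 and Hmcn1 lost their calls without ATV-CD98hc pool 1. A further 3 rises, of up to 1.06, were of genes higher elsewhere: Itga4 in pericyte-like, Lepr in fibroblast-like and Net1 in smooth muscle-like cells.

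The falls among endothelial genes were larger. Stmn2, a microtubule regulator better known from neurons, was at 318 and 270 against 83.6 and 86.2 CPM (-1.70, SE 0.20, adjusted p = 1.4e-06). Egfl8 was at 133 and 170 against 22.9 and 37.1 CPM (-2.25), and Cd300lg at 23.3 and 25.4 against 5.75 and 7.97 CPM (-1.74). Stmn2 and Egfl8 are among the leading genes of the arterial cluster. Where the average log2 CPM was at least 4, the largest called falls over all genes included Plvap, Fbln5, Mgp (-3.52), Igfbp3 and Luzp2 (-3.21). Mgp, a calcification inhibitor of vessel walls, is highest in fibroblast-like cells, and Luzp2 is highest in astrocyte-like cells. Of 46 called genes named by rule for this class and tested there, 31 were not called within the most frequent cluster.

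In astrocyte-like cells no endfoot or transmitter clearance gene passed the test, while more astrocyte genes were lower than higher in the medium bin. Of 16065 genes tested 626 rose (3.9%) and 419 fell (2.61%). Of the rises 290 had their peak in endothelial-like cells, out of 1531 such genes tested. Among 2652 genes with their peak in astrocyte-like cells 28 rose and 113 fell. The fit by pool called 868 higher and 771 lower, and 73 and 201 among the astrocyte genes. Without ATV-CD98hc pool 1 the calls numbered 555 in all (18 rises and 57 falls among the astrocyte genes) and without pool 2 they numbered 1643 (54 and 191). The clusters of the class held different shares in the 2 bins. One led by Cspg5 and Lhx2 held 33.9% and 37.5% of the low but 24.5% and 25.6% of the medium astrocyte-like cells, and at Leiden resolution 2 one led by Fjx1, Cspg5 and Lhx2 held 14.2% and 13.5% against 3.76% and 4.71%. The most frequent cluster was the same in all 4 libraries, led by Agt, Igsf1 and Itih3, and held 49.7% and 39.9% of the low and 56.8% and 47.9% of the medium cells. Within it 13 astrocyte genes rose and 17 fell. Between the ATVs the step was higher in ATV-CD98hc for 110 genes (0.685%) and lower for 47 (0.293%); these 157 calls became 90 and 1034 without ATV-CD98hc pool 1 and pool 2, and 20 and 26 without ATV-TfR pool 1 and pool 2.

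Of 10 endfoot and gap junction genes 0 were called in edgeR (3 at an unadjusted p under 0.05, and 1 higher in DESeq2), with a median of 0.03. Aqp4, the water channel of the endfeet, was at 766 and 687 CPM in the low and 746 and 720 in the medium libraries. Of 7 genes of glutamate and GABA clearance 0 were called (2 at an unadjusted p under 0.05, and 0 in DESeq2), with a median of 0.10; the glutamate carriers Slc1a2 and Slc1a3 had 0.12 and 0.10. The clathrin, Rab and lysosome lists had 0 calls there too (2, 2 and 3 genes at an unadjusted p under 0.05, and 0 in DESeq2), as had 14 amino acid stress genes (1 and 0).

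Slc3a2 was at 165 and 137 against 137 and 124 CPM in astrocyte-like cells (-0.20, adjusted p = 0.36), and Fcgrt at 49.2 and 46.4 against 43.6 and 58.6 CPM (0.11, adjusted p = 0.68). Neither passed the test. Slc7a5 rose from 28.2 and 33.1 to 48.2 and 69.9 CPM (0.96, SE 0.14, adjusted p = 0.00019), and its call held in 17 of 17 alternatives. Tfrc rose from 52.3 and 47.6 to 69.9 and 60.9 CPM (0.40, adjusted p = 0.037) and kept its call in 9 of 17. Both have their peak in endothelial-like cells, whose summed markers rose in the same libraries, as given above. The light chains of astrocytes, Slc7a10 (-0.16, adjusted p = 0.45) and Slc7a11 (0.12, adjusted p = 0.57), were not called, and of the rest of the list Slc7a8, with its peak in microglia-like cells, fell, a call lost without ATV-CD98hc pool 2.

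Reactive astrocyte genes had a median of 0.77 against -0.01 over all genes tested, with 5 of 12 called higher and 0 lower. Gfap, the intermediate filament that reactive astrocytes raise, was at 49.3 and 49.0 against 74.8 and 103 CPM (0.87, SE 0.17, adjusted p = 0.0024). At Leiden resolution 2 the cluster led by Gfap and Hopx held 14.8% and 16.5% of the low and 19.1% and 19.9% of the medium astrocyte-like cells. Hspb1, a small heat shock protein, was at 3.61 and 5.68 against 26.9 and 41.0 CPM (2.86), and Gbp2, Ggta1 and Serpina3n rose by 2.19, 1.05 and 0.78. None of the 5 has its peak in astrocyte-like cells: Hspb1 and Gbp2 are highest in endothelial-like, Ggta1 in microglia-like, and Gfap and Serpina3n in ependymal-like cells. Vim (0.76, adjusted p = 0.11) and Cd44 (0.07, adjusted p = 0.91) were not called. Without ATV-CD98hc pool 2 the list had 3 rises and 1 fall, and Gfap was not among the calls. Interferon-stimulated genes had a median of 0.78, with 5 of 15 higher, among them Isg15 (2.02), Ifit1 (1.35), Xaf1 (0.95) and Bst2 (0.95); 0 of the 15 have their peak in astrocyte-like cells. Without ATV-CD98hc pool 1 there were 3 calls in that list and without pool 2 there was 1.

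Among the carriers, Slc6a6, the taurine carrier, was at 9.26 and 12.2 against 59.0 and 68.8 CPM (2.57, adjusted p = 3.7e-08), and Slc38a5, Slc7a1 and Slc38a1 rose by 4.08, 1.91 and 1.26, so that 4 of 10 carriers independent of CD98hc were higher. Of these, Slc38a1 is highest in ependymal-like and the other 3 in endothelial-like cells, and Slc38a1 lost its call without either ATV-CD98hc pool, which left 3 of 10. Of 11 iron genes Tfrc, Slc40a1 and the ferroxidase Heph (0.44), with its peak in fibroblast-like cells, rose, and 1 of them was called without ATV-CD98hc pool 1 or either ATV-TfR pool. Of 7 Fc-handling genes B2m rose by 0.49 and Fcgr1, Fcgr3 and Fcer1g fell, all 4 with their peak in microglia-like or border macrophage-like cells. Without ATV-CD98hc pool 2 B2m, Fcgr1 and Fcgr3 lost their calls, and that of Fcgr1 was also lost without ATV-CD98hc pool 1, without ATV-TfR pool 1 and in DESeq2.

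Regional astrocyte genes were read because astrocytes differ between forebrain and deeper regions. Of 6 telencephalic genes 2 fell, with a median of -0.60. These values are over the whole class, in which the share of the cluster led by Cspg5 and Lhx2 was lower in the medium bin and that of the cluster led by Agt, Igsf1 and Itih3 was higher within each pool, as given above. The transcription factor Lhx2 was at 96.2 and 105 CPM in the low and 63.3 and 73.0 in the medium libraries (-0.56, SE 0.15, adjusted p = 0.025). Emx2, another factor of the forebrain, was at 35.5 and 39.4 against 21.7 and 23.9 CPM (-0.71, SE 0.12, adjusted p = 0.00059). The bins did not overlap for either gene. The fit by pool called 5 of the 6, the fits without ATV-CD98hc pool 1 or pool 2 called 1 each, and the most frequent cluster called 0 of 3 tested. Of 8 non-telencephalic genes 2 rose, Itih3, from 796 and 660 to 1022 and 1166 CPM (0.60, adjusted p = 0.0023), and Zic4 (0.69, adjusted p = 0.024), with its peak in fibroblast-like cells. Without ATV-CD98hc pool 2 neither was called, Zic4 was not called without pool 1, and within the most frequent cluster 0 rose and 1 fell.

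The genes of astrocytes themselves changed most at moderate levels. Rpe65, a retinoid isomerase, was at 40.2 and 52.8 CPM in the low and 15.45 and 16.01 CPM in the medium libraries (-1.56, SE 0.18, adjusted p = 1.2e-05). Chrdl1, a secreted antagonist of bone morphogenetic proteins by which astrocytes mature synapses, was at 45.1 and 50.9 against 15.1 and 21.3 CPM (-1.38, SE 0.14, adjusted p = 1.5e-06). Lama3, a laminin chain, was at 30.0 and 44.7 against 9.63 and 18.8 CPM (-1.37). In each of these the low libraries lay above both medium libraries, as the ranking rule asked. The other large falls were D030055H07Rik (-1.59), Gm26843 (-1.35), Ankrd29 (-1.12), Car8 (-1.06) and Ppp1r3g (-1.04). Within the most frequent cluster Chrdl1, Lama3, Gm26843, Ankrd29, Car8 and Ppp1r3g were not called. Chrdl1 is also among the leading genes of the Leiden resolution 2 cluster led by Fjx1, Cspg5 and Lhx2, whose shares are given above.

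The rises of astrocyte genes were smaller than their falls. Cdh22, a cadherin, was at 53.2 and 40.0 against 85.2 and 73.4 CPM (0.78, SE 0.15, adjusted p = 0.0018). Rasgrf1, an activator of Ras, rose by 0.71 and the membrane protein Igsf1 by 0.64, from 93.5 and 76.0 to 124 and 138 CPM. Adcy8, an adenylyl cyclase, was at 212 and 199 against 323 and 290 CPM (0.58), and Sema5b, Itih3, Gm33680 and Lrrc7 rose by 0.56 to 0.60. Within the most frequent cluster Cdh22, Igsf1, Itih3, Adcy8, Gm33680 and Lrrc7 were not called. Igsf1, Itih3 and Adcy8 are among the leading genes of that cluster, whose shares are given above. Sema5b, Gm33680 and Lrrc7 lost their calls without ATV-CD98hc pool 1, as did Ppp1r3g among the falls, and Igsf1 and Itih3 lost theirs without pool 2. The large called rises named by rule, at an average log2 CPM of at least 4 in the fit, were mostly of endothelial genes. Flt1, a receptor for vascular endothelial growth factor, went from 7.31 and 10.3 to 111 and 116 CPM (3.68, SE 0.18, adjusted p = 5.5e-10). Also named were Cldn5 (3.34), Itm2a (3.26), Spock2 (2.06), Pltp (1.92) and Slit2 (1.64), of which Slit2 has its peak in ependymal-like cells. The rise of Slc6a6, given above with the carriers, was larger than those of Spock2, Pltp and Slit2. Nupr1, a stress-induced regulator highest in fibroblast-like cells, went from 27.7 and 28.9 to 4.74 and 8.00 CPM (-2.13). Of 46 called genes named for this class, 24 were not called within the most frequent cluster.

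**Figure D5:**
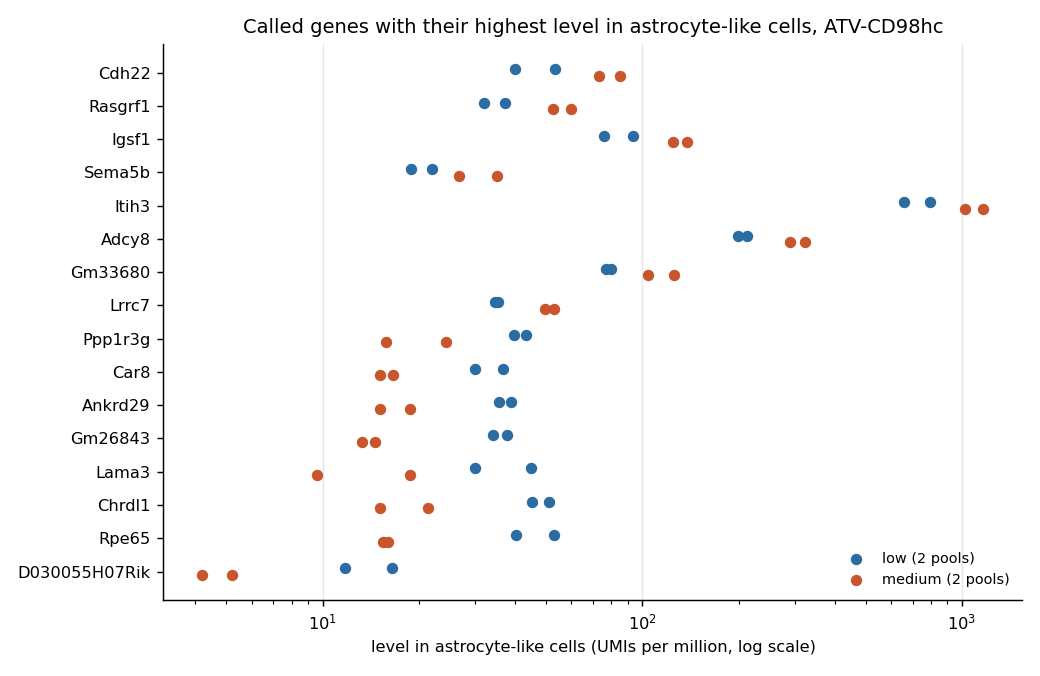
Level in astrocyte-like cells (x axis, CPM, log scale) of the 16 called genes named by rule among those with their peak in astrocyte-like cells, with the 2 low pools in blue and the 2 medium pools in orange. The rule asked that low and medium libraries not overlap. Rpe65 lies at 40.2 and 52.8 against 15.45 and 16.01, and Cdh22 at 53.2 and 40.0 against 85.2 and 73.4.

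In the 7 other classes with enough cells, 5666 calls were made, and few were of genes with their peak in the class itself. Of all genes tested, 4.25% rose and 3.45% fell in microglia-like cells and 1.28% and 4.94% in pericyte-like cells. In border macrophage-like cells these were 1.69% and 3.59%, in oligodendrocyte-like cells 1.43% and 2.86% and in ependymal-like cells 0.643% and 0.443%. Without ATV-CD98hc pool 1 there were 2742 calls and without pool 2 there were 3323. Endothelial markers summed to 110 and 181 CPM in the low against 3182 and 3735 in the medium microglia-like cells, and to 8155 and 9044 against 18577 and 16472 in the pericyte-like cells. Of the pericyte-like cells at Leiden resolution 2, the cluster with endothelial markers held 32.6% and 31.7% in the low and 76.8% and 69.2% in the medium bin. Astrocyte markers summed to 1030 and 2247 against 295 and 277 CPM in microglia-like cells and to 3691 and 2137 against 166 and 280 CPM in pericyte-like cells. The low bin thus had more astrocyte and the medium bin more endothelial RNA in both classes, as in the 5 others.

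Of 909 genes with their peak in pericyte-like cells 1 was called: Stc1, at 0 and 0 against 8.37 and 12.0 CPM; it is named because it was the only call. Of 2499 such genes in microglia-like cells 8 rose and 11 fell, with Ipcef1 at 50.2 and 43.3 against 101 and 76.3 CPM (0.96, adjusted p = 0.0058) and Tnfrsf17 at 44.3 and 51.0 against 22.4 and 24.0 CPM (-1.07, adjusted p = 0.014). Both lost their calls without ATV-CD98hc pool 1, which left 1 medium library of 127 microglia-like cells, and Tnfrsf17 also without pool 2. In border macrophage-like cells 2 of 1111 rose, Rad51b (1.62) and Rasa1 (0.98), and 5 fell, among them the transcription factor Batf3 (-1.58). In oligodendrocyte-like cells 8 of 1650 rose and 1 fell, the protease gene Klk6, from 39.7 and 47.9 to 4.797 and 12.6 CPM (-2.41, adjusted p = 0.018). Over all genes this class had 554 calls, against 255 within its most frequent cluster. In ependymal-like cells 1 of 1917 rose, Cnmd, from 35.9 and 30.2 to 211 and 161 CPM (2.49, adjusted p = 0.0010). The named calls of the border macrophage-, oligodendrocyte- and ependymal-like classes were lost without either ATV-CD98hc pool.

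Choroid plexus epithelial-like and fibroblast-like cells had more calls among their own genes than the classes just described. Such calls made up 3.47% and 11.3% of all calls in the 2 classes. Of 1323 choroid genes 57 rose and 6 fell, both smaller shares than the 7.07% and 7.28% over all genes tested in the class. Grm8, a metabotropic glutamate receptor, was at 7.51 and 9.56 against 41.9 and 35.0 CPM (2.28, SE 0.27, adjusted p = 1.3e-07), and Syt1 and Pdzrn4 rose by 2.74 and 2.62, and these 3 calls held without either pool. Fabp3, a fatty acid binding protein, fell by 0.56 and Clic3 by 0.53, and both lost their calls without either pool. Syt1, which encodes a synaptic vesicle protein, is on the list of neuron markers, and neurons are not among the 10 classes in which a peak was sought. Endothelial markers in these cells summed to 243 and 393 against 1568 and 5344 CPM. Neuron markers summed to 5.96 and 3.94 against 16.1 and 33.0 CPM, with both of the 2 tested called higher, and pericyte markers to 59.3 and 54.0 against 154 and 444 CPM, with 7 of 8 called higher. At Leiden resolution 2 a cluster led by Htr2c, Prlr and Frmpd4 held 0.795% and 1.99% of the low cells of this class. In the medium bin it held 6.59% and 12.4%. Its median depth was 14305 UMIs per cell, against 7044 in the other cluster of the class. The part of this cluster and of these markers in the rises was not tested.

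Of 1331 fibroblast genes 88 rose and 26 fell, a larger and a smaller share than the 3.82% and 4.66% over all genes tested in the class. Ccl2, a chemokine that draws monocytes, was at 239 and 177 against 38.7 and 13.4 CPM (-3.01, SE 0.61, adjusted p = 0.0018), and Slc22a6, an organic anion carrier, at 283 and 220 against 63.2 and 98.8 CPM (-1.63, adjusted p = 0.0018). Both are genes in which the low libraries lay above the medium ones, as the ranking rule asked. The call of Slc22a6 was lost without ATV-CD98hc pool 1 and within the most frequent cluster. Ccl2 kept its call within that cluster and lost it in DESeq2 and with female cells only. The calls of the class numbered 394 within that cluster, led by Slc6a13, Spp1 and Igfbp6, against 1005 over the whole class. The cells came from different clusters: one led by Slc6a13, Spp1 and Igfbp6 held 88.3% and 88.4% of the low and 62.2% of the medium pool 2 cells, while one led by Coch, Igfbp4 and Lum held 56.3% of those of medium pool 1. Median depth was 4179 and 4416 UMIs in the low and 7606 and 7244 in the medium fibroblast-like cells.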

How the data were processed

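The authors deposited 1 matrix of raw UMI counts (32285 genes, 265025 barcodes), made with Cell Ranger 7.1.0 on mm10 (GRCm38), per the submitters' processing notes. Groups and pools were taken from the sample titles. From the deposited counts, barcodes with at least 500 genes, 800 UMIs and at most 10% mitochondrial UMIs were kept (249715), and 15693 doublets were removed per library with Scrublet (scanpy 1.11.5; the 94th percentile of scores where its own threshold marked under 0.5% or over 25%). Cells of all libraries were clustered together (2000 variable genes without Tfrc, Slc3a2, sex, mitochondrial and ribosomal genes; 50 components; 15 neighbours; Leiden resolution 1). A marker counted for a cluster if 5% of its cells had it and its CPM was at least 25% of that in the highest cluster. A name needed at least 3 markers and 50% of a list. A cluster led by immune genes was left unnamed by a rule added after the clusters were seen. Cell numbers per class, and summed counts per class for libraries with at least 20 cells, were tested with edgeR 4.0.16 (quasi-likelihood, TMM for genes, 1 model over all libraries of a class, Benjamini-Hochberg over all genes tested, called at an adjusted p under 0.05). A permutation of 2 against 2 libraries could not go below p = 0.333, so none was used.

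The members and gene lists were chosen with earlier results of these data known. Named genes follow a rule. In endothelial- and astrocyte-like cells these are Slc3a2, Slc7a5, Tfrc and Fcgrt, the 6 largest rises and falls, the 8 largest among genes with their highest level in the class, and up to 4 called members a list. In the other classes they are the 3 largest each way among genes highest in the class, and between the ATVs the 4 largest each way. Ranked genes had to be called and have an average log2 CPM of at least 4. They also had to not overlap between bins, other than in the ranking between the ATVs. Mitochondrial, ribosomal, haemoglobin and sex-linked genes were left out. Values of other list members are given to describe a list. Some genes that the rule named are not reported here.

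Same-numbered libraries are the same pool of mice, per the labels, so the pool also entered as a block; deviations from the bin means correlated at 0.38 in endothelial-like (7995 genes) and 0.03 in astrocyte-like cells (8430 genes). On simulated counts edgeR recovered 84 of 100 genes changed by a log2 of 1 and 100 of 100 changed by 2 in endothelial-like cells, with 6 false calls of 13647, and 100 of 100 each in astrocyte-like cells, with 16 of 14817. There all libraries shared the same mean profile, without pool effects or RNA of other cells. The changed genes had an average log2 CPM of at least 4. These false calls are thus not the error rate of the comparison of the bins. Alternatives were DESeq2 1.42.0, other filters, normalizations, denominators and doublet thresholds, cells of 1 sex, the most frequent cluster alone, a finer clustering, and leaving out each replicate.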

Additional observations from a re-analysis of the deposited data

Results flagged for a closer look

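The results given here are shares, and genes of astrocyte-like and endothelial-like cells, for which the step from low to medium differed between ATV-CD98hc and ATV-TfR. They were called in edgeR, as a log2 difference of the 2 steps. Other classes had such calls too, up to 433 of 12638 genes in choroid plexus epithelial-like cells, and are not described here. Vehicle and genotype cannot be told apart in it. The astrocyte-like share differed by -2.83: it went from 68.0% ± 2.96 to 8.31% ± 1.28 in ATV-CD98hc and from 87.2% ± 3.06 to 75.9% ± 0.841 in ATV-TfR (SD, n = 2).

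In astrocyte-like cells 110 genes (0.685%) had a higher and 47 (0.293%) a lower step in ATV-CD98hc. Flt1, highest in endothelial-like cells, differed by 1.78, with 7.31 and 10.3 CPM in the low and 111 and 116 CPM in the medium libraries of ATV-CD98hc, against 1.93, 1.14, 5.99 and 5.07 CPM in the same order in ATV-TfR. Spock2 differed by 1.64, the guidance factor Slit2 by 1.35 and Lef1 by 1.16. The lower steps were those of Nupr1 (-1.82), Rpe65 (-1.28), the growth factor gene Nrg1 (-1.26) and Lama3 (-1.19). Of these 8, Flt1, Slit2, Lef1, Rpe65, Nrg1 and Lama3 were not called without ATV-TfR pool 1, the same genes other than Flt1 without ATV-TfR pool 2, and Flt1 and Nupr1 without ATV-CD98hc pool 1. Flt1 and Lama3 were also not called with 1 doublet percentile in every library, and within the most frequent cluster Spock2 and Slit2 alone of the 8 were called. The call of Spock2 held without each of these pools.

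In endothelial-like cells 8 genes (0.0515%) had a higher and 129 (0.83%) a lower step in ATV-CD98hc. The higher ones included the transcription factor gene Meox1 at 2.26, with 15.3, 18.2, 13.7 and 21.5 CPM in ATV-CD98hc and 27.1, 44.3, 8.93 and 6.61 CPM in ATV-TfR (low pools 1 and 2, then medium pools 1 and 2). Meox1 thus overlapped between the bins of ATV-CD98hc and was lower in the medium bin of ATV-TfR. Lmcd1 differed by 1.76 and Myof by 1.38. The lower ones, each highest in astrocyte-like cells, included Gm3764 (-2.96), Luzp2 (-2.82) and Gpr37l1 (-2.67). Luzp2 was at 78.4, 136, 8.94 and 12.9 CPM in ATV-CD98hc and at 96.6, 94.6, 67.6 and 72.4 CPM in ATV-TfR. The 6 genes named here lost their calls without either ATV-TfR pool.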

How the results depend on the processing

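Of the main results, each scored once for each alternative, 135 were scored the same, 43 moved and 1 was weaker. A count was scored as the same or moved by its ratio to the main count. Of the single genes and classes, likewise scored once for each alternative, 2232 stayed, 376 were weaker, 8 stronger and 9 reversed. Where a count moved, the cause was not tested. With the replicate block the counts of called genes were 2511 in endothelial-like (1279 without it), 1639 in astrocyte-like cells (1045), 482 for the difference of the steps between the ATVs in endothelial-like (137) and 478 in astrocyte-like cells (157). The block ended no call of a named gene in any class, and all 1279 and 1045 calls were among those of the block. With female cells only, the endothelial-like, astrocyte-like and other classes (5666 together) gave 789, 439 and 2500 calls and the 2 differences 37 and 21. With male cells only these were 634, 547, 1857, 32 and 70. The counts of the other classes are over fewer classes here than the 5666. The ependymal-like class had too few cells for either sex, and the border macrophage- and oligodendrocyte-like classes had too few male cells. A filter of an average log2 CPM of at least 4 gave 171, 278, 3083, 26 and 20. The most frequent cluster alone gave 569 and 456 calls and differences of 23 and 29. Without a filter on low counts the differences were 246 and 579 and the astrocyte-like count 1637. With only the ATV-CD98hc libraries the astrocyte-like count was 668, and with 1 doublet percentile in every library the astrocyte-like difference was 70. DESeq2 shared 1231 of the endothelial-like and 1005 of the astrocyte-like calls in direction.

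Leaving out 1 replicate gave 1048 to 1428 calls in endothelial-like, 555 to 1643 in astrocyte-like and 2742 to 5711 in the other classes together. The endothelial-like difference ranged from 0 to 234: without ATV-TfR replicate 1 or 2 it was 0 in edgeR, with 657 and 658 genes at an unadjusted p under 0.05, and without ATV-CD98hc replicate 1 or 2 it was 212 and 234. The astrocyte-like difference ranged from 20 to 1034: 90 and 1034 without ATV-CD98hc replicate 1 and 2, and 20 and 26 without ATV-TfR replicate 1 and 2. The log2 changes of the shares stayed within -3.15 to -2.93 for astrocyte-like and 2.81 to 2.89 for endothelial-like cells, with 5 classes called each time.

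Among cells outside the endothelial-like class 8 classes were called, with choroid plexus epithelial-like cells at 1.83, ependymal-like at 1.64, fibroblast-like at 1.74 and smooth muscle-like cells at 2.21. Oligodendrocyte-like cells, at 0.40, were not among the called classes. There 9 differences between the ATVs were called, with border macrophage-like cells at 1.37, fibroblast-like at 2.02, microglia-like at 1.41 and oligodendrocyte-like cells at 1.99. With TMM factors over the classes 0 differences were called, with astrocyte-like cells at -2.55. The smallest classes rest on few cells: smooth muscle-like cells numbered 9 and 13 in the low and 14 and 8 in the medium libraries. Medium ependymal-like cells numbered 33 and 32, medium oligodendrocyte-like cells 67 and 54, and low pericyte-like cells 93 and 141.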
